A study of Mus musculus with 24 samples.

Results

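The comparison asked which liver mRNAs differed between the dark and the light phase in young mice. The 12 young libraries of a series of 24 were used, 6 from the light phase (zeitgeber times ZT2, ZT6 and ZT10) and 6 from the dark phase (ZT14, ZT18 and ZT22). Zeitgeber time counts hours from lights on, and by that convention the lights go off at ZT12. All 12 came from livers of mice of about 4 months, wild type and of the inbred strain C57BL/6, with 2 replicate libraries at each time. The other 12 libraries came from mice of about 19 months with the same genotype, strain and times, and enter only where old liver is named. The labels do not give sex, feeding, the light schedule or whether replicates came from separate animals, so a p-value measures the spread between these samples, which may be technical. Values are deposited TPM, an abundance of transcripts per length, after scaling between libraries, and differences are on the scale of log2(scaled TPM + 0.5), dark minus light. A range given for a phase runs from the lowest to the highest of its 6 libraries, whatever their time, and is printed with their median.

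In the liver, a clock loop of activators (Arntl, also called Bmal1, and Clock) switches on repressors (Per, Cry and Nr1d genes) that later switch the activators off. Mice eat mostly at night, and the fed liver stores glucose as glycogen and makes fat, while the resting, fasting liver makes glucose and burns fat. Body temperature, blood hormones and feeding also act on liver mRNA independently of the liver's own clock. Phase is therefore a contrast of clock, food, temperature and hormones together, and with these samples those cannot be told apart.

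The young libraries held 9.68 to 13.7 M reads of 50 bases, estimated from the ratio of coverage to FPKM, and 43629 gene identifiers were listed. Summed levels of 6 hepatocyte markers were 81304 to 111538 TPM in light and 90333 to 112638 TPM in dark, so both groups had the mRNA of liver tissue. No marker of the other cell types searched passed the phase test. In bulk samples, fewer cells of a type and less RNA per cell cannot be told apart. The ZT18 replicate 2 library carried 4675 TPM of 13 pancreatic acinar markers, against at most 4.34 TPM in any other young library. The 3 dark libraries numbered 1 also stood apart. Their scaling factors were 0.817 to 0.833 and their mitochondrially encoded share 15.5 to 17.1% of TPM, against 0.985 to 1.05 and 13 to 13.4% in the 3 dark libraries numbered 2. The red blood cell marker Hbb-bs was at 1329.5 to 1666.5 TPM in the former and 560.5 to 587.8 TPM in the latter. The median difference of 5 such markers was 0.64 in libraries numbered 1 and -0.34 in those numbered 2. Over all 12, the mitochondrial share was 14.8 ± 1.83% in dark and 12.9 ± 0.911% in light (SD, n = 6 each), and an exact two-sided permutation test gave p = 0.0498, or 0.149 after adjustment over 3 library measures. The counts of called genes were also taken without these libraries. Without the 3 dark libraries numbered 1, each dark time keeps 1 library, at ZT18 the one with the pancreatic acinar markers.

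Of 12096 genes tested, 464 (3.84%) passed an adjusted p of 0.05 by limma: 248 (2.05%) were higher in dark and 216 (1.79%) higher in light. The typical called difference was moderate, with a median of 0.77 for the dark-higher genes and -0.78 for the light-higher genes. Differences of at least 1 on the log2 scale, a doubling, were found in 59 of the dark-higher genes (23.8%) and 61 of the light-higher genes (28.2%). All 6 dark libraries lay above all 6 light libraries for 102 of the tested genes (0.843%) and below them for 105 (0.868%), and 57 and 53 of these were among the called genes. The sign was the same in both replicate numbers for 248 of 248 and 216 of 216 called genes, a sign that the call itself largely fixes. The median difference over all genes tested was 0.01, and 51.3% of them were higher in dark. List counts below stand against these shares of all genes: 2.05% called higher in dark, 1.79% called higher in light and 51.3% higher in dark.

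The size of the call lists depended on how time within a phase and library size were handled. A plain comparison of 6 with 6 libraries, with no terms for time, counted the swing within a phase as error and called 31 and 38 genes, all among the 464. The deposited TPM without further scaling gave 100 genes higher in dark and 189 higher in light, and moved the median of all genes to -0.13, while the deposited FPKM gave 185 and 259. The dark-higher share of calls was thus 53.4% as reported, 34.6% on deposited TPM and 41.7% on FPKM. Without the 3 dark libraries numbered 1, 57 and 31 genes were called, of which 48 were among the 464, and without ZT18 replicate 2, 193 and 200 were called, of which 329 were. Leaving out any other library gave between 90 and 288 dark-higher and between 85 and 291 light-higher genes. Of the 92 called genes named by rule, 55 kept their call on deposited TPM, 83 on FPKM, 26 without the 3 dark libraries numbered 1, which leaves 1 library at each dark time, and 22 in the plain comparison.

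Core clock genes were among the clearest calls. Nr1d1 (REV-ERBα, chr11:98767932-98775333 in the deposited files, GRCm38, as for all gene limits here), the receptor that represses Arntl, was lower in dark, with 7.25 to 38.5 TPM, median 24.1, in light and 0 to 7.81 TPM, median 0.658, in dark, a difference of -3.57 (SE 0.23, adjusted p = 0.000319). The phases overlapped through ZT14, where its mean was 6.26 TPM, close to the 9.18 TPM at ZT2. Its paralog Nr1d2 was later, highest at ZT10 (mean 44.8 TPM), and differed by -1.27 (SE 0.12, adjusted p = 0.00134).

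Of the repressors that act on the activators themselves, Per2 and Cry1 were higher in dark. Per2 stood at 0.637 to 5.38 TPM, median 0.841, in light and 2.24 to 11.3 TPM, median 7.61, in dark (difference 1.76, SE 0.17, adjusted p = 0.00135). Its means climbed from 0.637 TPM at ZT2 to 9.65 TPM at ZT14 and fell back to 2.64 TPM at ZT22. Cry1 was at 3.08 to 11.5 TPM, median 3.83, in light and 9.11 to 21.3 TPM, median 16.6, in dark (difference 1.46, SE 0.11, adjusted p = 0.000568). It went on climbing through the night, from a mean of 9.33 TPM at ZT14 to 20.4 TPM at ZT22, and only its ZT2 libraries reached dark levels. The calls of Nr1d1, Nr1d2, Per2 and Cry1 held with each library left out in turn, on both deposited scales and without the 3 dark libraries, while in the plain 6 with 6 comparison only Nr1d1 kept its call (adjusted p = 0.035).

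For most other clock genes, 12 h groups averaged a large swing away. Arntl had means of 13.4, 2.53 and 0.0416 TPM at ZT2, ZT6 and ZT10 and of 0.633, 8.05 and 12.2 TPM at ZT14, ZT18 and ZT22. Its phase difference of 0.80 (SE 0.18, adjusted p = 0.0427) was lost on deposited TPM (adjusted p = 0.122) and FPKM (adjusted p = 0.0731), and in 10 of 12 fits with 1 library left out (highest adjusted p = 0.125, without ZT10 replicate 1). Per1 had means of 7.21 TPM at ZT10 and 4.98 TPM at ZT14 but 0.207 TPM at ZT2 (difference 0.39, adjusted p = 0.46). The Per1, Per3, Ciart and Arntl transcripts all varied among times within a phase (adjusted p = 0.0305, 0.00301, 0.000457 and 0.000237), so they differed between times that a phase average joins. Of 9 tested repressors, 2 were called higher in dark and 2 higher in light, with a list median of 0.18 against 0.01 over all genes.

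**Figure D1:**
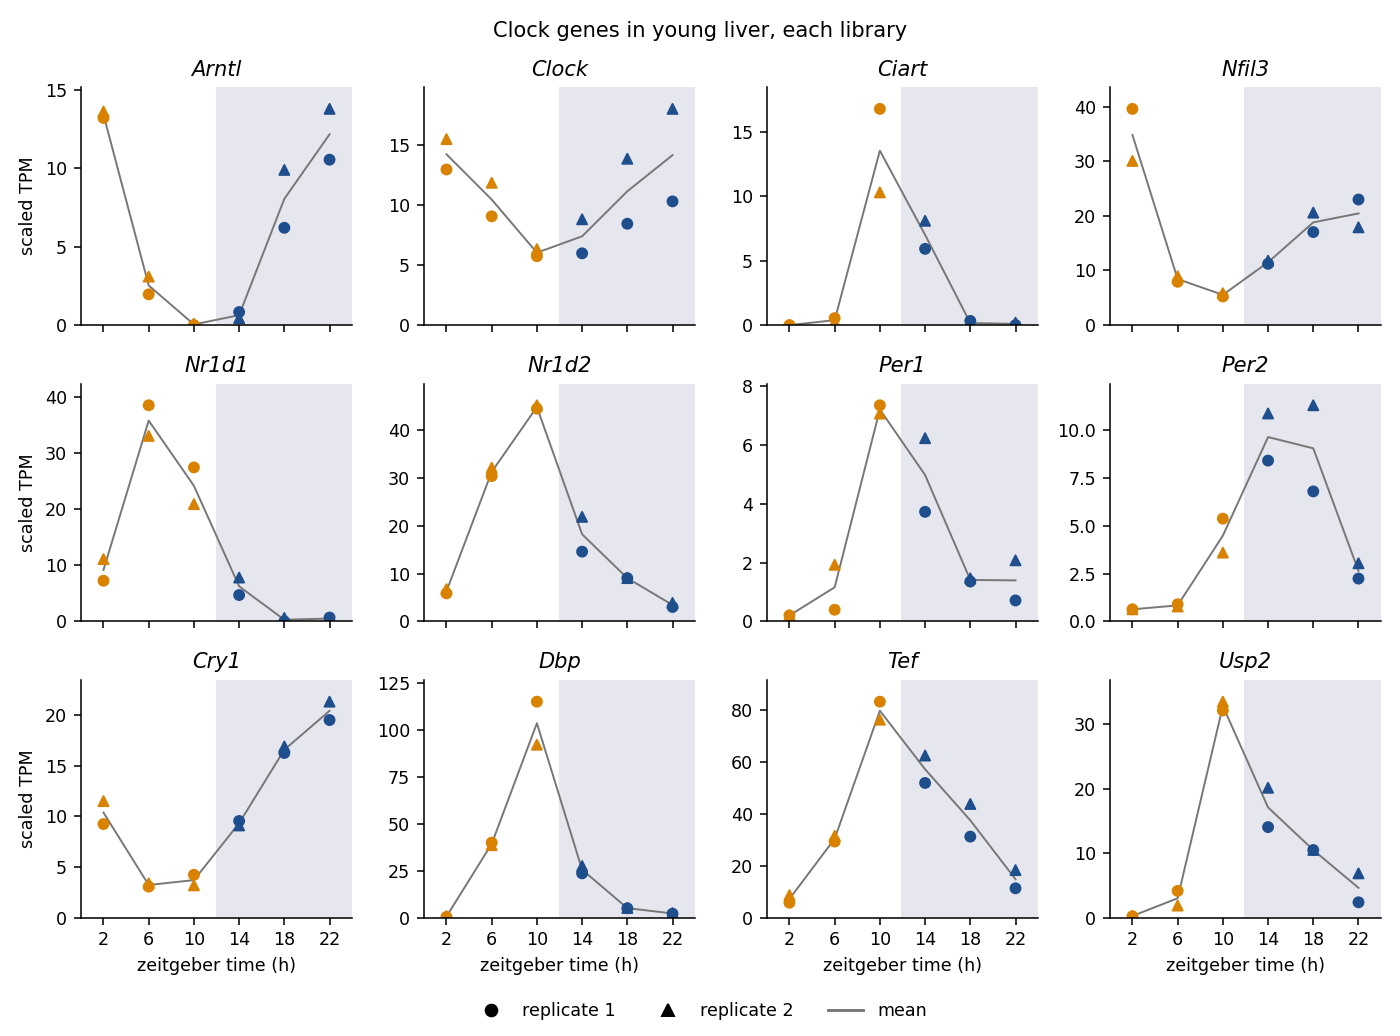
Levels of 12 clock genes in scaled TPM (vertical axes, linear from 0) against zeitgeber time in hours, with circles for replicate 1, triangles for replicate 2, a line through the means, and the dark phase shaded. Per2 and Cry1 sit high in the shaded part, Nr1d1 sits high at ZT6 and ZT10, and Arntl, Per1, Tef and Usp2 swing widely inside a phase.

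The Per and Cry repressors act at E-boxes, short sites bound by the activators. The E-box letters CACGTG, which read the same on both strands, were found in the promoters (250 bases before to 50 after the start) of 4 of 14 clock and PAR bZIP genes: Per1, Cry1, Ciart and Tef. The same letters were in 8.09% of all 27025 promoters in the RefSeq table and in 12% of the 8091 promoters of tested genes. Called genes were near that share, at 11.8% of 170 dark-higher and 16.1% of 162 light-higher promoters. The window of Cry1 is shown because Cry1 was the dark-higher repressor with such a site, with the site in capitals (RefSeq, GRCm38.p6).
Cry1, chr10:85185055-85185174, minus strand: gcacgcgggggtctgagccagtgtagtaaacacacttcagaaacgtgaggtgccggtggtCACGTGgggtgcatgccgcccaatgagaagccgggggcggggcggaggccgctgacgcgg
A match of letters is a description of the window and not evidence of binding.

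Among genes that the clock drives, the PAR bZIP factors (Dbp, Tef, Hlf and their competitor Nfil3) bind D-boxes in metabolic genes. Dbp was higher in light, at 0.538 to 115 TPM, median 39.3, against 2.21 to 27.6 TPM, median 5.17, in dark (difference -1.19, SE 0.12, adjusted p = 0.00135). The light values ran from the lowest of all at ZT2 (mean 0.735 TPM) to the highest at ZT10 (mean 103 TPM), so the phases overlapped completely. Tef, Hlf and Nfil3 were not called (differences 0.26, -0.08 and 0.45). Rgs16, which damps G protein signals, fell from a mean of 65.5 TPM at ZT10 to 16.3, 1.95 and 1.51 TPM at the dark times (difference -2.47, SE 0.22, adjusted p = 0.00133). Usp2, a ubiquitin protease, and Noct (Ccrn4l in the files), a nocturnin that acts on NADP(H), were called higher in dark at 1.11 and 1.05 (adjusted p = 0.0448 and 0.019). For Usp2 this held on the log scale and not for the means, which were 12.03 TPM in light and 10.7 TPM in dark, with the highest time mean at ZT10 (32.8 TPM). Both genes had their highest mean at ZT10 or ZT14, and both calls were lost on deposited TPM (adjusted p = 0.119 and 0.078) and without the 3 dark libraries (adjusted p = 0.0997 and 0.0715). Without those libraries Rgs16 held (adjusted p = 0.0128) and Dbp did not (0.0563), and neither was called in the plain comparison (0.135 and 0.589).

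Cirbp, a cold-inducible RNA-binding protein that is known to follow body temperature, was lower in dark. It stood at 10.8 to 22.4 TPM, median 16.2, in light and 5.12 to 15.6 TPM, median 6.1, in dark (difference -1.05, SE 0.15, adjusted p = 0.00766), and its 2 highest dark values were both from ZT22. The call was lost without the 3 dark libraries (adjusted p = 0.0704) and in the plain comparison (adjusted p = 0.0815). Rbm3, the other cold-inducible gene, had a difference of 0.06 (SE 0.29, adjusted p = 0.916).

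Several glucose, glycogen and lipid genes known for the fed state were higher in dark. Ppp1r3b, which brings a phosphatase to glycogen and promotes its synthesis, was at 19.0 to 105 TPM, median 32.4, in light and 123 to 224 TPM, median 163, in dark, with no overlap (difference 2.12, SE 0.21, adjusted p = 0.00143). It was the only called member of 11 tested glycogen genes. Pfkfb1, the liver enzyme that sets fructose 2,6-bisphosphate, was also called (0.73, SE 0.13, adjusted p = 0.0204, lost on deposited TPM at adjusted p = 0.139 and without the 3 dark libraries at adjusted p = 0.0577).

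Thrsp, the thyroid hormone responsive Spot 14 protein of fat synthesis, rose to the highest levels of this group. Its light values were 156 to 409 TPM, median 220.4, and its dark values 427 to 1903 TPM, median 1188, without overlap (difference 2.20, SE 0.27, adjusted p = 0.0039). Angptl8 (listed as Gm6484), a feeding-induced liver hormone that directs triglyceride between tissues, was at 31.6 to 162 TPM, median 53.9, in light and 174 to 440.1 TPM, median 280.5, in dark, again without overlap (difference 2.16, SE 0.29, adjusted p = 0.00665). Fatty acid synthase, Fasn, followed with 41.5 ± 14.4 TPM in light and 90.7 ± 41.1 TPM in dark (SD, n = 6 each, difference 1.08, SE 0.23, adjusted p = 0.0377). Elovl6 (fatty acid elongation), Aacs (use of ketone bodies for lipid) and Agpat2 (phosphatidic acid synthesis) were called at 0.89, 1.08 and 0.50. The main regulators and most enzymes of the pathway were not called, among them Srebf1 (0.58, adjusted p = 0.25), Acly (0.68, adjusted p = 0.19), Acaca (0.05) and Scd1 (-0.11). Lipogenesis as a list therefore had 5 of 24 members called, all higher in dark, and a median of 0.09. That median was -0.05 on deposited TPM, where the median of all genes moved from 0.01 to -0.13.

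Calls in this group differed in how firmly they stood. Ppp1r3b, Thrsp and Angptl8 held with each library left out, on both deposited scales and in the plain 6 with 6 comparison (adjusted p = 0.0241 for each). Without the 3 dark libraries numbered 1, Ppp1r3b held (adjusted p = 0.0337) and Thrsp (0.0826) and Angptl8 (0.144) did not. Fasn, Elovl6, Aacs and Agpat2 were lost on deposited TPM (adjusted p = 0.121, 0.116, 0.067 and 0.0637) and in 2 to 11 of 12 fits with 1 library left out. None of the 5 lipogenesis calls was kept without the 3 dark libraries.

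Single genes of glucose production (1 of 12 tested) and of insulin, growth hormone and IGF (3 of 15) were called lower in dark. Pck1, a rate-controlling enzyme of gluconeogenesis (chr2:173153048-173159273), was at 336 to 1386 TPM, median 625, in light and 81.0 to 357 TPM, median 169, in dark (difference -2.04, SE 0.29, adjusted p = 0.00803). Its means rose through the light phase from 419 to 625 to 1291 TPM, dropped to 217 TPM at ZT14 and reached 88.5 TPM at ZT18. G6pc, which releases free glucose, had 189.7 ± 55.6 TPM in light and 105 ± 43.2 TPM in dark but was not called (difference -0.91, adjusted p = 0.0906), and Pck1 was the only call of 12 in the list. Igfbp1, an insulin-suppressed binding protein, was at 29.1 to 154 TPM, median 64.9, in light and 3.49 to 85.3 TPM, median 13.8, in dark (difference -2.28, SE 0.41, adjusted p = 0.0203). Irs2, an insulin receptor substrate, was at 1.86 to 4.24 TPM, median 3.45, in light and 0.401 to 2.15 TPM, median 0.986, in dark (difference -1.28, SE 0.21, adjusted p = 0.0152). Stat5b, which carries growth hormone signals, differed by -0.63 (adjusted p = 0.0405) and lost its call on deposited TPM (adjusted p = 0.0822).

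The Pck1 call held with each library left out and without the 3 dark libraries (adjusted p = 0.0286), but missed the threshold in the plain 6 with 6 comparison (adjusted p = 0.062). Igfbp1 lost its call in 6 of 12 fits with 1 library left out (highest adjusted p = 0.0718, without ZT10 replicate 1) and Irs2 in 1 (adjusted p = 0.0552, without ZT10 replicate 1). Igfbp1 held without the 3 dark libraries (adjusted p = 0.00429), and Irs2 (0.165) and Stat5b (0.201) did not.

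Few genes of fat burning and autophagy were called, all lower in dark. Cpt1a, the gate of fatty acids into mitochondria, was at 58.1 to 214 TPM, median 115, in light and 32.0 to 95.6 TPM, median 63.7, in dark (difference -0.88, SE 0.20, adjusted p = 0.0436), and Angptl4, a fasting-induced lipase inhibitor, differed by -1.12 (SE 0.22, adjusted p = 0.0292). These were 2 of 27 oxidation and ketogenesis genes, where 1.79% of all genes tested were called lower in dark. Of the 27, 21 were lower in dark, with a median of -0.19. Both calls were lost on deposited TPM (adjusted p = 0.0784 and 0.0547) and without the 3 dark libraries (adjusted p = 0.21 and 0.13). Gabarapl1, which coats autophagosomes, was at 242 to 400.2 TPM, median 296, in light and 100.4 to 206 TPM, median 148, in dark, without overlap (difference -1.07, SE 0.094, adjusted p = 0.00122). That call held in each leave-out fit, on both deposited scales, without the 3 dark libraries (adjusted p = 0.024) and in the plain comparison (adjusted p = 0.0251). Ulk1 and Atg14, which start autophagosomes, were also lower in dark (-0.90 and -0.59, adjusted p = 0.0454 and 0.0331), but both calls were lost in 10 of 12 leave-out fits, on deposited TPM (adjusted p = 0.0773 and 0.0602) and without the 3 dark libraries (adjusted p = 0.268 and 0.178). The other 19 of 22 autophagy and lysosome genes were not called.

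Trib3 and Ddit4, both known as targets of the amino acid response, were called in opposite directions. Trib3, a pseudokinase that dampens insulin signals, was at 1.90 to 14.8 TPM, median 7.12, in light and 0.636 to 1.99 TPM, median 0.855, in dark (difference -2.07, SE 0.18, adjusted p = 0.00122). Ddit4, an inhibitor of mTORC1, was at 1.86 to 6.94 TPM, median 3.79, in light and 8.10 to 12.8 TPM, median 9.79, in dark, without overlap (difference 1.23, SE 0.16, adjusted p = 0.0053). The Trib3 call held without the 3 dark libraries (adjusted p = 0.0407) and the Ddit4 call did not (adjusted p = 0.112). The 5 other tested genes of that list were not called.

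**Figure D2:**
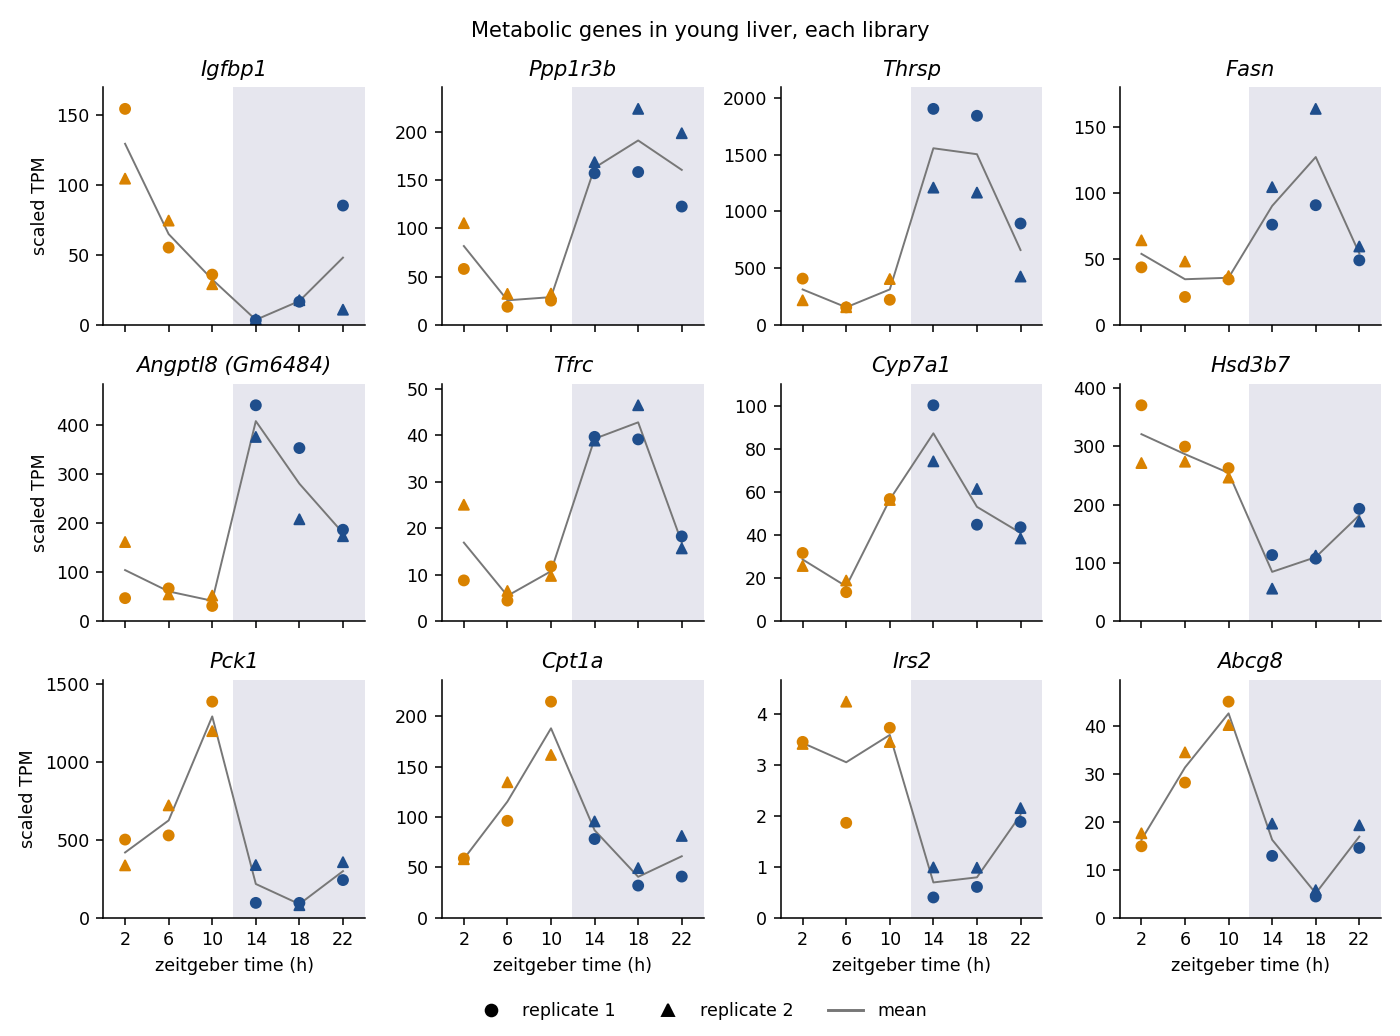
Levels of 12 metabolic genes in scaled TPM (vertical axes, linear from 0) against zeitgeber time in hours, with circles for replicate 1, triangles for replicate 2, a line through the means, and the dark phase shaded. Ppp1r3b, Thrsp and Angptl8 step up between ZT10 and ZT14, while Pck1 drops from a mean of 1291 TPM to 217 TPM over the same interval.

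Bile acid synthesis was split within the pathway. Cyp7a1, the rate-limiting enzyme of bile acid synthesis, was higher in dark, at 13.6 to 56.8 TPM, median 28.8, in light and 38.5 to 100.3 TPM, median 53.2, in dark (difference 0.93, SE 0.14, adjusted p = 0.00991). Hsd3b7, which acts on the next sterol intermediates, was lower in dark, at 246 to 369.7 TPM, median 272, in light and 56.1 to 193 TPM, median 113, in dark, without overlap (difference -1.28, SE 0.17, adjusted p = 0.00657). Amacr, the racemase of side-chain shortening, also did not overlap, at 64.5 to 87.2 TPM, median 83.2, in light and 54.3 to 63.3 TPM, median 58.7, in dark (difference -0.43, SE 0.082, adjusted p = 0.0259). Its call was lost in 9 of 12 leave-out fits. In the plain comparison Hsd3b7 (adjusted p = 0.035) kept its call, and Amacr (0.0576) and Cyp7a1 (0.187) did not. Nr0b2 (SHP), a repressor of Cyp7a1, had a difference of -0.47 (adjusted p = 0.0635) and was not called. Of 16 genes in the list, 12 were lower in dark, with a median of -0.31. Cyp7a1 and Hsd3b7 held in each leave-out fit and on both deposited scales, and without the 3 dark libraries Hsd3b7 held (adjusted p = 0.0128) and Cyp7a1 (0.089) and Amacr (0.14) did not.

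The canalicular exporters of cholesterol and phospholipid were lower in dark. Abcg8 and Abcg5, the subunits of the cholesterol exporter, differed by -1.28 (SE 0.14, adjusted p = 0.00243) and -0.66 (SE 0.13, adjusted p = 0.0294). Abcg8 was at 14.9 to 45.0 TPM, median 31.3, in light and 4.45 to 19.6 TPM, median 13.7, in dark, with the lowest mean, 5.11 TPM, at ZT18. Their listed limits overlap on opposite strands (chr17:84676302-84700333, plus, and chr17:84658234-84683011, minus), and whether the counting used strand is not given in the sources used here, so their reads may be mixed. Abcb4, the phosphatidylcholine exporter, was at 56.4 to 111 TPM, median 81.9, in light and 39.2 to 63.0 TPM, median 49.9, in dark (difference -0.66, SE 0.11, adjusted p = 0.0122). These were the 3 calls of 15 membrane transporters. Abcg5 was lost in 8 of 12 leave-out fits (highest adjusted p = 0.0997, without ZT10 replicate 1), and without the 3 dark libraries only Abcg8 was kept (adjusted p = 0.0343). In cholesterol synthesis, 1 of 25 genes was called: Mvd, a mevalonate pathway decarboxylase, with 11.1 ± 7.24 TPM in light and 19.6 ± 11.3 TPM in dark (difference 0.83, adjusted p = 0.0203, lost on deposited TPM at adjusted p = 0.0669 and without the 3 dark libraries at adjusted p = 0.161). Sqle, the squalene epoxidase, was not called (0.42), and the list median was 0.05. On deposited TPM the list median was -0.1, where that of all genes was -0.13.

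Heat shock genes were the list with the most calls, 11 of 24, all higher in dark, where 2.05% of all genes tested were called in that direction. Of the 24, 22 were higher in dark and the median difference was 0.57. The called members were cytosolic chaperones and their helpers. Of the 13 uncalled members, Hspa8, Hsp90ab1, Hspa4, Hspa4l, Hspa1a, Dnajb4 and Cryab are cytosolic too. The mitochondrial Hspd1, Hspe1, Hspa9 and Trap1, Serpinh1 of the endoplasmic reticulum and the factor Hsf1, also on the list, were not called either. Hspb1, a small chaperone that holds unfolded proteins (chr5:135887919-135889563), was at 4.72 to 25.4 TPM, median 11.9, in light and 29.2 to 68.3 TPM, median 36.4, in dark, without overlap (difference 1.79, SE 0.23, adjusted p = 0.0053). Hsph1, a nucleotide exchange factor for Hsp70, was at 4.09 to 32.0 TPM, median 8.80, in light and 14.1 to 68.5 TPM, median 44.8, in dark (difference 1.61, SE 0.16, adjusted p = 0.00135). Hsp90aa1, the inducible Hsp90, was at 65.0 to 161 TPM, median 83.2, in light and 131 to 345 TPM, median 247, in dark (difference 1.24, SE 0.14, adjusted p = 0.00299). Hsp90 helpers were among the calls as well, namely Fkbp4 (0.87), Stip1 (0.88), Chordc1 (0.97) and Ahsa1 (0.59), and so were the Hsp70 helpers Bag3 (1.02), Dnajb1 (0.69) and Dnaja1 (0.54).

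The called heat shock genes had their highest mean at ZT14 (6 genes: Bag3, Chordc1, Dnaja1, Dnajb1, Hspa1b and Hsph1) or at ZT18 (5 genes: Ahsa1, Fkbp4, Hsp90aa1, Hspb1 and Stip1). Hspa1b, an inducible Hsp70, was at 2.15 to 4.8 TPM, median 2.96, in light and 1.53 to 45.2 TPM, median 4.54, in dark, and both high values came from ZT14, whose mean was 41.3 TPM against 4.11 TPM at ZT18 and 2.55 TPM at ZT22. Its difference was 1.19 (SE 0.26, adjusted p = 0.0427, lost in 10 of 12 leave-out fits, highest adjusted p = 0.118 without ZT10 replicate 1). Hspa1a, an adjacent and nearly identical copy, had the same shape (ZT14 mean 19.4 TPM, difference 1.05, adjusted p = 0.0647), and reads shared by the copies may have been divided between them. Hsp90aa1 and Hspb1 had ZT18 means of 333 and 60.3 TPM. The mRNA of Hsf1, the transcription factor of the heat shock response, was not called, at 5.74 ± 0.383 TPM in light and 5.04 ± 0.697 TPM in dark (difference -0.18, adjusted p = 0.436).

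Leaving out 1 library kept 8 to 10 of the 11 heat shock calls, deposited TPM kept 7 and FPKM kept 11. Without the 3 dark libraries numbered 1, 5 were kept in a list median of 0.58, and the plain 6 with 6 comparison kept 1, Hspb1 (adjusted p = 0.035). By replicate number the list median was 0.80 for number 1 and 0.51 for number 2.

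Heat shock factors bind inverted repeats of a short unit, of which the pair GAANNTTC (N is any base, the same on both strands) was searched. It was in the promoters of 7 of the 10 called heat shock genes with an entry in the RefSeq table (Bag3, Chordc1, Dnaja1, Fkbp4, Hspa1b, Hspb1 and Hsph1) and not in those of Ahsa1, Dnajb1 and Stip1. Hsp90aa1 is named only, without a promoter. Of 8 uncalled heat shock genes with an entry, 3 had the letters (Hspa1a, Hspd1 and Hspe1). The share was 9.04% of all 27025 promoters, 7.33% of those of tested genes, 12.9% of the 170 dark-higher and 4.94% of the 162 light-higher. These 4 windows of 120 bases are shown because they belong to genes with the early (Hspa1b, Dnaja1) and the later (Hspb1, Fkbp4) night maximum, each with the pair in capitals, from GRCm38.p6.
Hspa1b, chr17:34959279-34959398, minus strand: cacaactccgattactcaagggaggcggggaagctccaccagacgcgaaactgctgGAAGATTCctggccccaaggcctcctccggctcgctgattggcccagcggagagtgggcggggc
Dnaja1, chr4:40722288-40722407, plus strand: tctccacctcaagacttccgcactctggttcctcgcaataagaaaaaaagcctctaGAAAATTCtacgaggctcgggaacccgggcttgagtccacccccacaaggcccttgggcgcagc
Hspb1, chr5:135887756-135887875, plus strand: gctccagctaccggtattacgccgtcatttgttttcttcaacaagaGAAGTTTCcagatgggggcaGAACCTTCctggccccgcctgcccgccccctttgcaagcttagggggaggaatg
Fkbp4, chr6:128438744-128438863, minus strand: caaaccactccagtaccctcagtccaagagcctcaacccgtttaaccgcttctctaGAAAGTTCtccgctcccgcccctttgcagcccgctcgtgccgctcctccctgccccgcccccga
Hspb1 has the pair at 2 places in the window and the other 3 at 1.

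Chaperones of the endoplasmic reticulum went the same way with fewer calls, 6 of 25, and 23 of the 25 were higher in dark (median 0.42). Over all genes tested, 2.05% were called higher in dark and 51.3% were higher in dark. Creld2, a folding factor for secreted proteins, was at 14.9 to 76.3 TPM, median 20.6, in light and 26.4 to 144 TPM, median 123, in dark (difference 1.5, SE 0.14, adjusted p = 0.00134). Its ZT2 mean, 76.1 TPM, lay above its ZT22 mean, 32.2 TPM, so the phases overlapped at their edges. Sdf2l1 (1.23), Derl3 (1.17), Dnajb11 (0.51) and Hsp90b1 (0.48), which work in folding and in removal of misfolded proteins, and Ddit3 (CHOP, 1.12), a stress-induced transcription factor, were the other calls. Hspa5 (BiP), a main chaperone of the endoplasmic reticulum, had 297 ± 131 TPM in light and 439 ± 204 TPM in dark and was not called (0.56, adjusted p = 0.122). With 1 library left out, 1 to 5 of the 6 calls were kept, and Creld2 was kept in every such fit. Deposited TPM kept 3, and without the 3 dark libraries 2 were kept, Creld2 (adjusted p = 0.0406) and Sdf2l1 (adjusted p = 0.0396). The plain comparison kept none of the 6.

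Assembly factors of ribosomes were also higher in dark, in 29 of 32 tested genes, with 6 called and a median of 0.25. The shares over all genes tested were 51.3% higher in dark and 2.05% called so. Nolc1, a nucleolar chaperone, was at 3.96 to 9.78 TPM, median 7.63, in light and 9.57 to 22 TPM, median 13.8, in dark (difference 0.91, SE 0.15, adjusted p = 0.0129). Rrp12 (1.19), Nop56 (0.80), Wdr12 (0.72), Nop2 (0.62) and Bysl (0.57) were the others, and each had its highest mean at ZT14. None of the 6 calls was kept on deposited TPM or without the 3 dark libraries, although the list median was 0.11 and 0.34 there. Myc, a known driver of ribosome genes, was lower in dark without being called, at 4.19 ± 3.14 TPM in light and 1.36 ± 0.568 TPM in dark (difference -1.09, adjusted p = 0.0536).

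**Figure D3:**
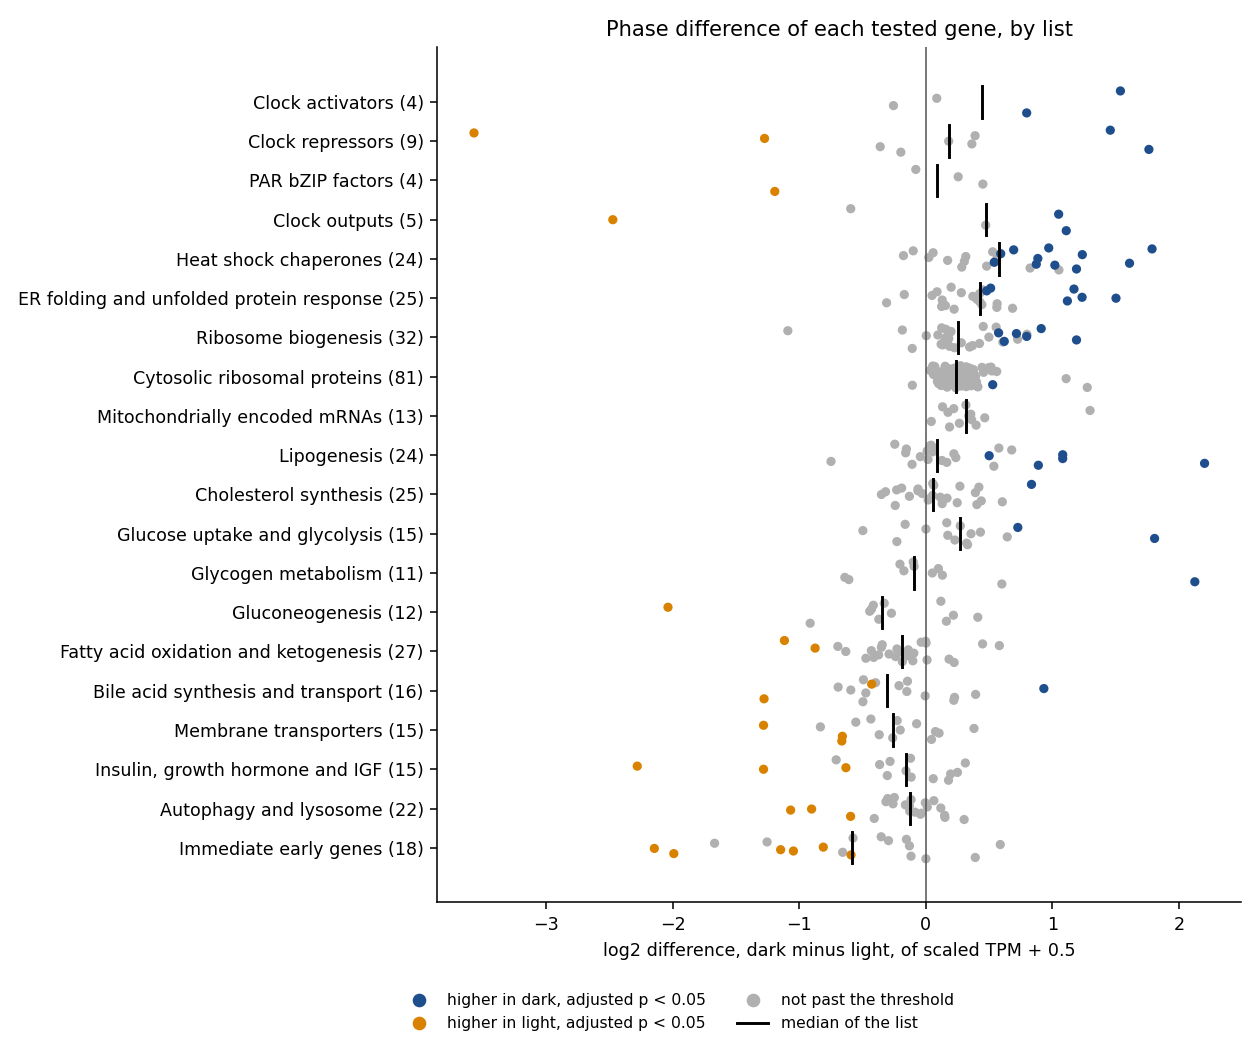
Each point is 1 tested gene, placed by its dark minus light difference on the log2(scaled TPM + 0.5) scale (horizontal axis) in 20 lists (rows, with the number tested). Colours mark genes past the threshold and black bars list medians. Heat shock genes lie mostly to the right of 0 with 11 of 24 past the threshold, and immediate early genes mostly to the left with 6 of 18.

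Ribosomal proteins and mitochondrial transcripts were also mostly higher in dark, but their medians depended on the replicate number. Of 81 cytosolic ribosomal proteins, 80 were higher in dark and 1, Rpl7l1 (0.53, adjusted p = 0.0368), was called, with a list median of 0.24. That median was 0.56 in the libraries numbered 1 and -0.03 in those numbered 2. The 13 mitochondrially encoded mRNAs, all higher in dark with none called, had 0.57 and 0.05, and the 74 mitochondrial ribosomal proteins 0.40 and -0.0013. Without the 3 dark libraries numbered 1, the medians were -0.07, 0.03 and -0.04. These differences moved with the scaling factor and mitochondrial share of those 3 libraries, and their part in the result was not tested. By replicate number, the ribosome assembly median was 0.24 and 0.26, and the immediate early median -0.24 and -0.81.

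Immediate early genes, which respond within minutes to hormones, growth factors or handling, were lower in dark in 16 of 18 cases, with 6 called (median -0.58). Over all genes tested, 1.79% were called lower in dark. The AP-1 subunit Junb (chr8:84976909-84978748) was at 11.8 to 25.4 TPM, median 18.9, in light and 3.24 to 5.89 TPM, median 3.59, in dark, without overlap (difference -1.99, SE 0.16, adjusted p = 0.000773). Its test of times within a phase did not pass the threshold (adjusted p = 0.42), with both ZT22 values (5.89 and 5.84 TPM) above the other dark ones, and its call held in all 25 alternative settings tried. Egr1, a zinc finger transcription factor, was at 0.854 to 15.1 TPM, median 11.7, in light and 0.216 to 4.63 TPM, median 1.16, in dark (difference -2.15, SE 0.48, adjusted p = 0.0445). Zfp36, which destabilises mRNAs, did not overlap, at 23.4 to 46.5 TPM, median 38.6, in light and 12.9 to 22 TPM, median 18.5, in dark (difference -1.05, SE 0.20, adjusted p = 0.0226). Maff (-1.15), Klf10 (-0.81) and Ier2 (-0.59) were the other calls. Leaving out 1 library kept 2 to 5 of the 6 calls, and only Junb was kept without the 3 dark libraries (adjusted p = 0.0364). Egr1 was lost in 10 of 12 leave-out fits (highest adjusted p = 0.13, without ZT18 replicate 1).

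Glucocorticoid targets did not move as a group. Tsc22d3 (GILZ), an anti-inflammatory mediator, was higher in dark, at 35 ± 9.34 TPM in light and 69.7 ± 18.6 TPM in dark (difference 0.98, SE 0.22, adjusted p = 0.0427). Klf9, a transcription factor, was lower, at 25.2 to 50.4 TPM, median 40.2, in light and 12.2 to 27.1 TPM, median 16.2, in dark (difference -1.12, SE 0.11, adjusted p = 0.00135). Cdkn1a (p21), an inhibitor of the cell cycle, was called at 1.36 (SE 0.25, adjusted p = 0.0207), with a ZT22 mean of 17.1 TPM that exceeded its other 5 time means, of 0.401 to 6.08 TPM. Ddit4, described above, is on this list as well, and Fkbp5, a feedback inhibitor of the receptor, was not called (0.67, adjusted p = 0.0599). In all, 3 of 16 were higher and 1 lower, with a median of 0.08. On deposited TPM the list median was -0.07, where that of all genes was -0.13. Tsc22d3 lost its call in 11 of 12 leave-out fits (highest adjusted p = 0.116, without ZT2 replicate 1) and on both deposited scales (adjusted p = 0.0977 and 0.0514), and Cdkn1a in 7 (highest adjusted p = 0.0718, without ZT10 replicate 1). Of the 4 called genes, only Klf9 was kept without the 3 dark libraries (adjusted p = 0.0343).

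Detoxification, amino acid and metal genes gave scattered calls. Higher in dark were Gsta3, a glutathione transferase, at 882 to 2151 TPM, median 1341, in light and 2074 to 3336 TPM, median 2478, in dark (difference 0.91, SE 0.15, adjusted p = 0.0128), and Ces1d, a carboxylesterase, at 418 to 725 TPM, median 542, against 746 to 992 TPM, median 891, without overlap (0.68, SE 0.12, adjusted p = 0.0201). Cyp2a5 (0.82), Fmo5 (0.77) and Sult1a1 (0.45) were also called. So 3 of 23 phase I genes and 2 of 23 conjugation genes were called higher in dark, against 2.05% of all genes tested. On deposited TPM, Gsta3 kept its call (adjusted p = 0.00831). Ces1d, Cyp2a5, Fmo5 and Sult1a1 lost theirs there (adjusted p = 0.0679, 0.0657, 0.107 and 0.153). In amino acid breakdown, Agxt, which detoxifies glyoxylate, was lower in dark, at 159 to 221 TPM, median 195, in light and 91.7 to 144 TPM, median 112, in dark, without overlap (-0.75, SE 0.11, adjusted p = 0.00803), as was Cbs of transsulfuration (-0.74). The urea cycle genes Asl (0.60) and Nags (0.40) and the proline oxidase Prodh (0.41) were higher in dark, and all 3 were lost on deposited TPM (adjusted p = 0.142, 0.248 and 0.221). With ZT10 replicate 1 left out, none of Cyp2a5, Ces1d and Fmo5 was called (adjusted p = 0.0718, 0.0703 and 0.0718). Fmo5 held without the 3 dark libraries (adjusted p = 0.0343), and Gsta3 (0.163), Ces1d (0.159), Cyp2a5 (0.168), Sult1a1 (0.217) and the 5 amino acid genes (0.0537 to 0.229) did not.

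Tfrc, the transferrin receptor that takes up iron, was at 4.49 to 25.1 TPM, median 9.30, in light and 15.7 to 46.5 TPM, median 39.0, in dark (difference 1.62, SE 0.23, adjusted p = 0.00803). The low dark values were both from ZT22. Slc40a1, ferroportin, which exports iron, was lower in dark (-0.39, adjusted p = 0.0446) but lost its call in all 12 leave-out fits (highest adjusted p = 0.145). Nampt, the rate-limiting enzyme of NAD salvage and a clock target, was at 14.7 to 45.8 TPM, median 18.5, in light and 22.9 to 61.6 TPM, median 39.6, in dark (difference 0.70, SE 0.096, adjusted p = 0.00712). Esr1, oestrogen receptor alpha, was the only call of 18 nuclear receptors outside the clock lists, with 4.30 ± 1.17 TPM in light and 8.36 ± 2.09 TPM in dark (difference 0.88, adjusted p = 0.0171, lost on deposited TPM at adjusted p = 0.0915). None of Tfrc (adjusted p = 0.147), Slc40a1 (0.148), Nampt (0.115) and Esr1 (0.133) was called without the 3 dark libraries. None of 37 proteasome subunits, 16 antioxidant genes, 16 plasma carriers or 13 phospholipid synthesis genes was called by limma.

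Among the largest differences were genes outside these groups. Cml5, of the camello-like acetyltransferase family, had the smallest adjusted p of the named genes, at 11 to 41.4 TPM, median 14.3, in light and 55.4 to 134 TPM, median 66.7, in dark, without overlap (difference 2.01, SE 0.11, adjusted p = 0.000216). Tnnc1, a troponin known from heart and slow muscle, was at 0 to 0.989 TPM, median 0.274, in light and 2.03 to 7.4 TPM, median 6.24, in dark (difference 2.71, SE 0.20, adjusted p = 0.000568). Of 3 skeletal muscle markers, Ckm and Myh4 were listed at 0 in every young library and Acta1 was at 0.105 to 1.46 TPM, and their part in the Tnnc1 result was not tested. Lower in dark without overlap were Clec2h, a C-type lectin, at 6.21 to 35.3 TPM, median 18.7, against 2.39 to 5.67 TPM, median 3.49 (-1.98, SE 0.21, adjusted p = 0.00236), and Syt1, a calcium sensor of vesicle fusion, at 2.90 to 18.4 TPM, median 6.58, against 0.743 to 2.62 TPM, median 1.57 (-1.87, SE 0.21, adjusted p = 0.00299). Fbxo21, a ubiquitin ligase subunit (-1.83, adjusted p = 0.00657), and Slc7a2, a transporter of cationic amino acids (-1.56, adjusted p = 0.0299), completed the lower group. In the plain comparison Clec2h (adjusted p = 0.035) and Fbxo21 (0.0431) kept their calls, and Syt1 (0.0539) and Slc7a2 (0.0897) did not. Without the 3 dark libraries numbered 1, Clec2h, Syt1 and Slc7a2 lost their calls and Fbxo21 kept its call. Slc7a2 was lost in 9 of 12 leave-out fits (highest adjusted p = 0.0997, without ZT10 replicate 1).

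Mup11 had the largest called difference, 4.67 (SE 1.0, adjusted p = 0.0382), and the least certain identity, since major urinary protein genes are nearly identical copies. It was at 12.1 to 86.0 TPM, median 26.6, in light and 28.6 to 2714 TPM, median 1509, in dark. The lowest dark value, 28.6 TPM, was from ZT18 replicate 2, while ZT18 replicate 1 had the highest. At ZT14, ZT18 and ZT22, the libraries numbered 1 had 2239, 2714 and 2150 TPM. Those numbered 2 had 867, 28.6 and 620 TPM. In old liver the Mup11 means were 40.6 TPM in dark and 34.4 TPM in light. The other 15 tested Mup genes were not called, and Mup11 was lost in 9 of 12 leave-out fits (highest adjusted p = 0.107, without ZT14 replicate 1).

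A second question was which genes differed between times of the same phase. By limma's F test, 176 genes (1.46%) did, of which 78 were also called by phase and 98 were not. These 98 were highest at ZT2 (36 genes) or ZT10 (26 genes) more often than at ZT6 (2 genes). The choice of genes set this in part, since a gene with its maximum in mid-phase tends to differ between phase averages. Coq10b, a coenzyme Q binding protein, rose from a mean of 11.7 TPM at ZT2 to 57.0 TPM at ZT10 and fell from 40.1 TPM at ZT14 to 10.6 TPM at ZT22 (within-phase adjusted p = 0.000176, phase difference -0.09). Upp2, which cleaves uridine, took the same course, from 79.8 to 584 TPM and from 354 to 151 TPM (adjusted p = 0.000314). Clpx, a subunit of a mitochondrial protease, and Aqp8, a water and hydrogen peroxide channel, ran the other way, from 172 to 32.4 TPM by day and from 40.0 to 172 TPM by night for Clpx, and from 208 to 48.2 TPM and 30.4 to 289 TPM for Aqp8. Pcsk4, a proprotein convertase, had means of 28.4 TPM at ZT10 and 16.2 TPM at ZT14 and at most 4.86 TPM at other times. For each of these 5 the phase averages did not differ past the threshold (adjusted p = 0.104 to 0.665).

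Genes called by phase also clustered in time. The dark-higher genes were highest at ZT14 in 120 cases and at ZT18 in 109, but at ZT22 in only 17, and were lowest at ZT10 in 114 and at ZT6 in 108. The light-higher genes were highest at ZT10 in 118 cases, at ZT6 in 71 and at ZT2 in 26, and lowest at ZT18 in 105 and at ZT14 in 95. The step over lights off, from ZT10 to ZT14, was thus between common extremes of both groups, and ZT22 and ZT2, on either side of lights on, were seldom extremes. The number of genes at each time was set partly by the phase call, which requires the extremes to fall in opposite phases for most genes.

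**Figure D4:**
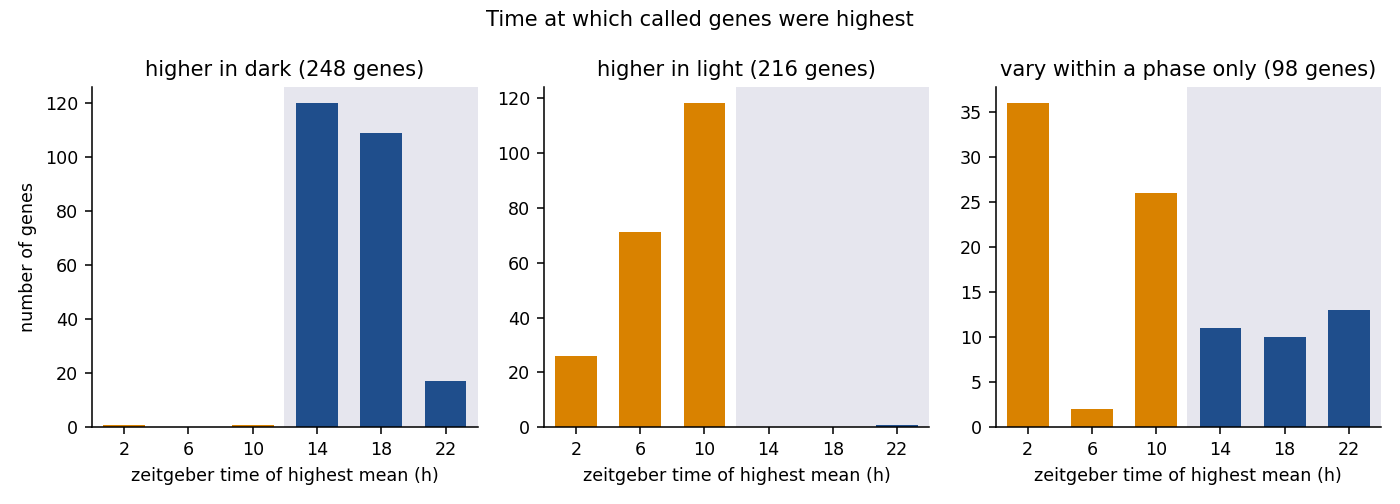
Bars give the number of genes (vertical axis, from 0) whose mean level was highest at each zeitgeber time in hours, for the 248 genes higher in dark, the 216 higher in light and the 98 that varied within a phase without a phase call. Dark-higher genes peak at ZT14 and ZT18, light-higher genes mostly at ZT10, and the last group mostly at ZT2 and ZT10. In each group the rule that chose the genes set these times in part.

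Another 4 named genes switched between a low and a high level in whole pairs of libraries. Gjb1 (connexin 32), the main gap junction protein of hepatocytes, was at 1.26 to 4.67 TPM in 8 young libraries and 409.5 to 482 TPM in the 4 of ZT10 and ZT18. Trex1, an exonuclease, was listed at 0 in 8 libraries and at 5.06 to 8.37 TPM in the 4 of ZT10 and ZT14. Nanp, a sialic acid phosphatase, was listed at 0 in the 4 of ZT6 and ZT18 and at 5.65 to 9.52 TPM in 8. Cyp2c69, a cytochrome P450 with close copies, was at 0 to 1.09 TPM in 8 and at 51.3 to 83.3 TPM in the 4 of ZT2 and ZT10, which gave the largest light-higher call (-4.21, SE 0.33, adjusted p = 0.000773). In young liver the replicates of a time were on the same side of this split at 6 of 6 times for these genes. The genes were named for small p-values in the young libraries, which need replicates that agree, so this was largely fixed by the choice. In old liver, on which they were not chosen, the replicates were on opposite sides at 4 of 6 times for Gjb1, 2 for Trex1 and 2 for Nanp. For Cyp2c69, which had 1 high library of 12, this was so at 1 time. The 2 ages cannot be compared on this count. An exact 0 in such files can be a failed estimate, so these genes' time differences are given as listed values, and 292 of 12096 tested genes (2.4%) had a 0 in at least 1 young library, against 8 of 248 dark-higher (3.2%) and 5 of 216 light-higher (2.3%).

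The last comparison set the phase difference of young liver against that of old liver. Of the genes called in young, 238 of 248 dark-higher (96.0%) and 209 of 216 light-higher (96.8%) had the same sign in old, with median old differences of 0.60 and -0.54, against 0.77 and -0.78 in young, on whose values the genes were chosen. In old, 144 and 100 of them were called in the same direction, where 2.34% of 12261 genes were called higher in dark and 1.89% higher in light. The difference between the ages passed an adjusted p of 0.05 by limma for 3 of 12261 genes (0.0245%, against 483 at an unadjusted p under 0.05). Elovl3, an elongase of saturated fatty acids, had a phase difference of -0.81 in young and 0.36 in old (young minus old -1.16, SE 0.16, adjusted p = 0.024). In young its means were 734 TPM at ZT2, 22.3 TPM at ZT14 and 593 TPM at ZT22, a swing within both phases. Rab11b, a GTPase of recycling vesicles, was at 14.5 to 21.9 TPM, median 18.1, in light and 4.29 to 14.1 TPM, median 6.55, in dark in young, without overlap, and its differences were -1.22 in young and 0.17 in old (-1.39, SE 0.21, adjusted p = 0.0386). Tmem258, a subunit of the oligosaccharyltransferase, differed by 0.89 in young and -0.78 in old (1.66, SE 0.25, adjusted p = 0.0386). The count was 0 to 31 with 1 library left out, so these genes were not stably separated from the rest.

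**Figure D5:**
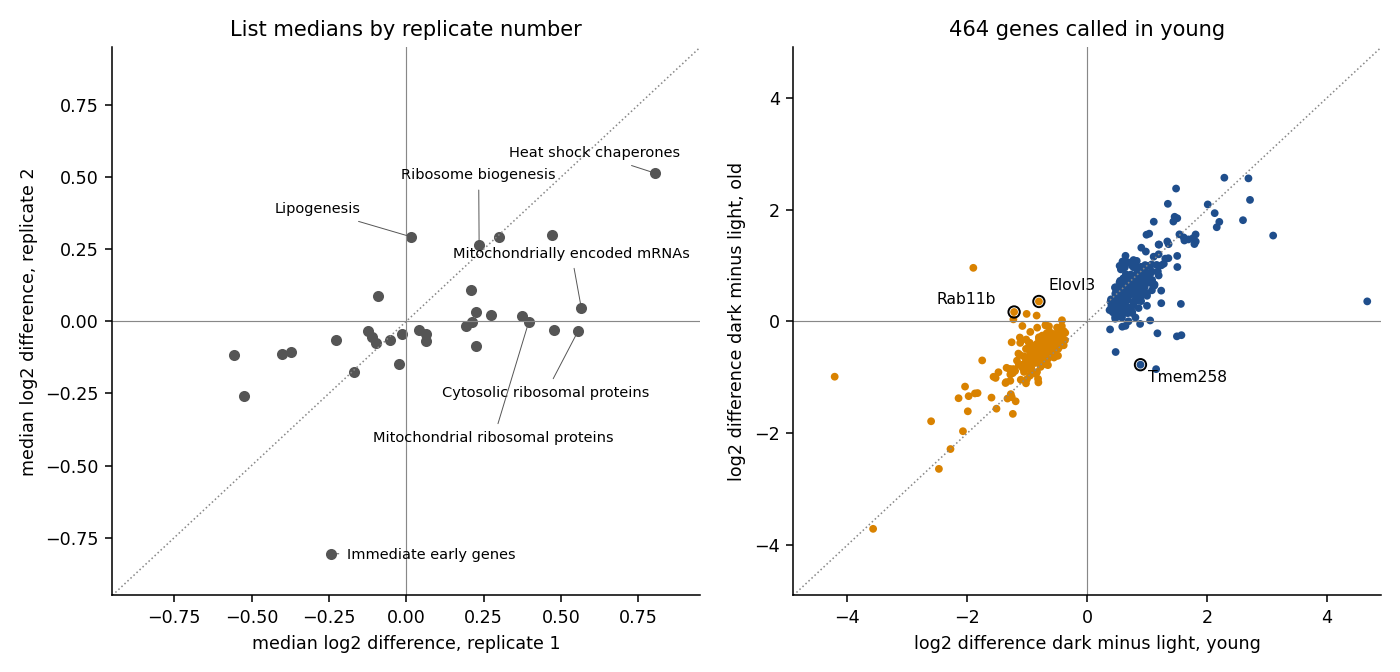
Left, the median dark minus light difference (log2) of each pathway list with at least 10 tested genes, in libraries numbered 1 (horizontal axis) and 2 (vertical axis). Right, the same difference for the 464 genes called in young, in young (horizontal axis) and old (vertical axis). On the left, ribosome biogenesis lies near the diagonal, and heat shock genes lie above 0 for both numbers (0.80 for number 1, 0.51 for number 2). Ribosomal protein and mitochondrial lists lie near 0 on the vertical axis. Circles on the right mark the 3 genes whose young minus old difference passed the threshold by limma, which was not stable to leaving out 1 library.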

How the data were processed

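Polyadenylated mRNA was selected with oligo-dT and read on 1 end for 50 bases with strand kept, per the labels. HISAT2, StringTie and the build GRCm38 are named in the submitters' processing notes, with no versions. The TPM, as deposited, sum to 1000000 in each library. The deposited FPKM values were scaled by the authors for length and depth, and served as an alternative and for the depth estimate. The deposited coverage values, the authors' mean coverage per base, were used only for the depth estimate. The files used here hold no read counts, so counting error of single values is unknown.

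TPM entries of 1 gene identifier were summed. Libraries were scaled by the median of ratios, taken from 13270 genes present in each of the 24 libraries. The 12096 genes that averaged 1 TPM or more over the 12 young libraries were tested with limma 3.58.1 (R 4.3.3, moderated variances that follow intensity), on scaled TPM plus 0.5 in log2 and 6 time groups of 2, with 6 residual degrees of freedom. The phase contrast was the mean of ZT14, ZT18 and ZT22 minus that of ZT2, ZT6 and ZT10, and an F test of 4 contrasts compared times within a phase. The age difference used 12 groups over 24 libraries. P-values were adjusted by Benjamini and Hochberg over all genes tested, with a threshold of 0.05. Python 3.11.15, pandas 2.3.3, numpy 2.4.6, scipy 1.17.1 and matplotlib 3.10.9 did the rest, and the fits were tested on simulated data. Values at 0 were kept as listed.

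Named genes were the 12 called genes with the largest difference in each direction at 5 TPM or more in the higher phase, every tested clock, output and cold-inducible gene, up to 5 members of every other list with the smallest p, 8 genes with the smallest within-phase p and no phase call, and 6 with the smallest p for the age difference. Predicted genes and clone names (44 and 17 of the called genes) were counted and not named, except members of a list. Some genes that this rule names are not reported here. Further called list members, and uncalled members named beside them, were chosen after their values were seen. Members and lists were chosen with earlier results of these data known. Of 52 lists, 39 were pathways and 13 cell types. Adipocyte, mesothelium and skeletal muscle markers had no gene above the filter, and in the 10 other cell type lists no gene was called. Promoters came from RefSeq, GRCm38.p6, matched by gene symbol.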

Additional observations from a re-analysis of the deposited data

Results flagged for a closer look

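In groups of 6 libraries, each extreme value was judged by its gap to the nearest other value, as a share of the group's range. For genes, gap and range were taken on the log2 scale of the tests, while the values below are printed in TPM. A value was singled out where this share exceeded Dixon's 95% critical value. Chance alone gives this in about 1 in 20 groups of like values. These groups join times that can differ, so that rate may not apply to them. A value was singled out in 15 of 424 groups (3.54%). In dark these were Mup11 at 28.6 TPM in ZT18 replicate 2 (others 620.3 to 2714), mt-Nd4l at 5567 TPM in ZT22 replicate 1 (others 4084 to 4530), Psmd4 at 43.3 TPM in ZT22 replicate 2 (others 69.7 to 84.7) and Alb at 60199 TPM in ZT22 replicate 1 (others 74651 to 80196). At ZT6, replicate 1 was low for Rora at 10.9 TPM (others 14.8 to 17.7), Irs2 at 1.86 TPM (others 3.41 to 4.24) and Apob at 432 TPM (others 986 to 1516), and replicate 2 was high for Plin2 at 446.6 TPM (others 242 to 292). At ZT2, replicate 1 was low for Igf1 at 216 TPM (others 271 to 302) and mt-Co2 at 353.6 TPM (others 7292 to 12897) and high for Nnmt at 89.7 TPM (others 45.6 to 58.7). At the same time, replicate 2 was low for Wipi1 at 5.88 TPM (others 9.34 to 10.7) and high for Gclc at 200.1 TPM (others 124 to 145). At ZT10, Sdhd was low at 214.6 TPM in replicate 1 (others 254 to 274) and Mup9 was listed at 0 in replicate 2 (others 94.2 to 366).

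For 3 genes the phase difference itself differed between young and old liver by limma: Tmem258 by 1.66, Elovl3 by -1.16 and Rab11b by -1.39 (log2, young minus old).

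The 13 pancreatic acinar markers, all tested by phase and none called, summed to 4674.9 TPM in the young ZT18 replicate 2 library.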

How the results depend on the processing

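No named gene changed direction with a call under any of the alternatives, and 43 of 92 called named genes kept their call with each of the 12 young libraries left out in turn. Such fits gave 90 to 288 dark-higher, 85 to 291 light-higher and 102 to 181 within-phase genes, fewest without ZT14 replicate 1 (dark) and ZT10 replicate 1 (light, within phase), and, over 24 libraries, 0 to 31 age differences, most without young ZT18 replicate 1. The deposited TPM without scaling gave 100 dark-higher genes, and 244 of the 464 calls were kept. The 6 with 6 comparison without time terms gave 31 and 38. All 24 libraries in the fit gave 456, 415 and 407 (dark, light, within phase). Without the 3 dark libraries numbered 1, chosen after seeing the data, 57, 31 and 90 were called. Age differences numbered 9 with no filter and 1 with no intensity trend. The replicate block gave 460, 461 and 298 genes, with all 464 calls among the first 2. The labels do not say what a replicate number marks, and deviations of same-numbered libraries correlated over 0.1 in 10 of 15 pairs of times but not in all (-0.163 to 0.455), so the number was not used as a pairing. The cause of these shifts was not tested. List medians changed sign in 9 of 49 lists on deposited TPM, 2 on FPKM, 2 with quantile normalization and 11 without the 3 dark libraries. The median of all genes also moved, from 0.01 to -0.13 on deposited TPM and to -0.05 on FPKM. A sign change on those scales can therefore be a shift shared by all genes. With 2 libraries a time and no counts, a gene's absence from the calls does not show that it did not differ.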
